A study of Mus musculus with 2 samples.

Results

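The 32 genes described here encode enzymes, membrane proteins and regulators of the lysosome. They were chosen by name, and all 32 were found among the 27998 genes of the gene list. They were followed through 1 droplet single-cell RNA library of mouse pancreatic islets. The WT library came from islets of male wild-type mice, 8 weeks old and fasted for 12 hours, and was prepared by 3′ end counting in droplets (10x Genomics, v2 chemistry). The other library of the series, also of islets from male mice of that age after the same fast, carried a miR-203 transgene that its labels place in beta cells. The number of mice behind each library is not given in the sources used here, and each group has 1 library. Of the transgenic library only droplets without a cell were at hand, so every comparison between cells rests on WT.

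Lysosomes are the acidic compartment in which proteins, sugar chains and lipids are broken down. Their membrane is lined by heavily glycosylated proteins such as LAMP1 and LAMP2, and their hydrolases are made in the secretory pathway and sorted away from it. In beta cells lysosomes also take up surplus secretory granules, a process known as crinophagy. Many lysosomal genes carry a promoter motif, CACGTG, that is bound by TFEB and its relatives.

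The motif was searched in RefSeq promoters of build GRCm38.p6, which run from 250 bases before to 50 bases after each gene's start. Of the 32 members 27 had an entry there, with 32 promoters among them, and Aga, Asah1, Ctsb, Ctsh and Npc1 did not. CACGTG, which reads the same on both strands, lay in 11 of the 32 member promoters (34.4%), against 7.15% of all 32851 promoters of the same length. The genes were Lamp1, Ctsa, Ctsd, Ctsf, Ctsl, Gaa, Gla, Glb1, Lgmn, Naglu and Mcoln1. The longer TCACGTGA, which contains it, lay in 12.5% of member promoters and 0.974% of all, and GTCACGTG, read on either strand, in 25% and 2.25%. A match of letters is a description and shows no binding. The windows below are shown because they hold the motif in a membrane protein, proteases and the calcium channel of the list. They run 5′ to 3′ on each gene's strand, and capitals mark CACGTG.
Lamp1: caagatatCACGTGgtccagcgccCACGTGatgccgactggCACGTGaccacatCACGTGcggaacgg
Ctsa: caaactgtCACGTGatgcag
Ctsd: ccgcgtctCACGTGacccgttg
Lgmn: atgtctgtCACGTGgtccattt
Mcoln1: gccccgctCACGTGaccgcggc
The Lamp1 window, chr8:13159092-13159159 on the plus strand, holds the motif 4 times between 69 and 2 bases before the gene's start. Those of Ctsa (chr2:164833753-164833772, plus strand), Ctsd (chr7:142387912-142387933, minus strand), Lgmn (chr12:102439128-102439149, minus strand) and Mcoln1 (chr8:3500466-3500487, plus strand) hold it 1 time each. The whole promoters of Ctsa, Ctsd and Mcoln1 hold it at 1 further place, at 6, -245 and -71 from the RefSeq start. The GENCODE annotation starts Ctsa at 164832873, Ctsd at 142388038, Lgmn at 102439813 and Mcoln1 at 3500457. By that annotation the windows of these genes lie inside the gene.

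Transcripts were counted as unique molecular identifiers (UMIs), random tags that mark each captured molecule 1 time. Cells were barcodes past a minimum of UMIs and 500 genes, which 4547 of 737280 WT barcodes met, the smallest with 5641 UMIs. Cells were grouped by hormone share of their UMIs: 3261 beta cells (Ins1 plus Ins2 of at least 30%), 471 alpha cells (Gcg, glucagon, of at least 8%), 149 delta cells (Sst, somatostatin, of at least 3%), 117 PP cells (Ppy, pancreatic polypeptide, of at least 8%) and 549 cells that met none of these rules. Among the last, 82 cells with at least 10 UMIs of macrophage markers and 115 with at least 10 of endothelial markers were set apart. Both are ranges of a score: 25 and 4 cells lay just under the limit with 5 to 9 UMIs, and 6 and 1 just over it with 10 to 14. Median depth ran from 8048 UMIs in endothelial-marked to 23415 in beta cells, and without the 7 hormone genes from 7232 in delta to 10595 in alpha cells among the endocrine groups. The extraction text in the labels describes sorted intestinal goblet cells, yet 7 goblet cell markers gave 267 of 104708672 UMIs in cells and Muc2, the main gut mucin, 4. A level below is a gene's UMIs per 1000000 non-hormone UMIs of a group, in ppm. The kit tags each transcript once at its 3′ end, so levels of different genes were compared without dividing by length. Intervals are 95% and exact and cover counting error only. With 1 library per group there is no replicate spread and no p-value.

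Summed over the list, the level was higher in beta cells than in the other endocrine groups, mostly through Cd63 and Psap, and far higher in macrophage-marked cells. The 32 genes summed to 4212 ppm in beta cells (4191 to 4233), 3054 in alpha (3008 to 3100), 3326 in delta (3228 to 3425) and 3035 in PP cells (2945 to 3127). Without Cd63 and Psap the sums were 2461 in beta, 2312 in alpha, 2184 in delta and 2027 in PP cells. The summed level in beta cells was 1.38 times that in alpha cells as a plain ratio and 1.09 times relative to the median tested gene. Macrophage-marked cells stood at 14714 (14474 to 14956) and endothelial-marked cells at 2980 (2872 to 3091). From cell to cell the list took a median of 0.404% of non-hormone UMIs in beta cells, with the 10th and 90th percentiles at 0.298% and 0.563%, and 0.299% in alpha cells (0.206% to 0.421%), so single cells of both groups overlapped. Cd63 and Psap together made up 41.6% of the list in beta cells and, with Lamp1 and Npc2, 58.0%. In macrophage-marked cells the leading 4 were Ctss, Psap, Ctsb and Cd63, with 58.7%. Levels of at least 20 ppm were reached by 21 members in beta, 19 in alpha, 23 in delta, 20 in PP and 29 in macrophage-marked cells.

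Among the membrane proteins, Cd63, a tetraspanin of late endosomes, lysosomes and secretory vesicles (chromosome 10, 128900989 to 128912822, plus strand, mm10), stood at 888 ppm in beta cells (878 to 898), 423 in alpha (406 to 440), 670 in delta (627 to 716) and 584 in PP cells (545 to 625). These 4 intervals did not overlap, and beta cells were highest. Lamp1, the most abundant structural protein of the lysosomal membrane, lay within a narrower range, at 363 in beta (356 to 369), 282 in alpha (268 to 296), 317 in delta (287 to 349) and 278 in PP cells (251 to 307). Lamp2, which also serves in chaperone-mediated autophagy, stood at 150 in beta cells (146 to 154) and at about the same lower level in the others, 79.7 in alpha (72.5 to 87.5), 77.0 in delta (62.8 to 93.4) and 79.8 in PP cells (65.7 to 95.9). Scarb2, which carries glucocerebrosidase to the lysosome, ranged from 43.2 in alpha to 98.8 in beta cells. Mcoln1, a calcium channel of the lysosomal membrane, was low throughout: 10.8 in beta (9.76 to 11.9), 5.97 in alpha (4.11 to 8.38), 11.3 in delta (6.34 to 18.7) and 3.53 in PP cells (1.15 to 8.24).

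Psap encodes the precursor of the saposins, small proteins that present sphingolipids to their hydrolases (chromosome 10, 60277627 to 60302597, plus strand). Its level was 863 in beta cells (854 to 873), 319 in alpha (304 to 334), 472 in delta (435 to 510) and 424 in PP cells (390 to 459), so that beta cells lay apart while the delta and PP intervals overlapped. Asah1, acid ceramidase, followed a like order with 145 in beta (142 to 149), 49.0 in alpha (43.3 to 55.2), 80.0 in delta (65.5 to 96.7) and 62.1 in PP cells (49.8 to 76.5). Npc2, which hands cholesterol to NPC1 in the lysosomal lumen, had another order: 593 in alpha cells (573 to 613), 342 in PP (312 to 374), 331 in beta (325 to 337) and 288 in delta cells (260 to 319), with only alpha cells apart from all 3 others. Npc1, the membrane partner of NPC2, was highest in delta cells at 46.0 (35.2 to 59.1) against 23.9 in beta cells (22.3 to 25.5). Lipa, the acid lipase of cholesterol esters, lay at 18.2 in beta and between 4.94 and 8.30 in the other endocrine groups.

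Ctsd, the main aspartic protease, stood at 199 in beta (194 to 204), 131 in alpha (122 to 141), 150 in delta (130 to 172) and 161 in PP cells (141 to 183). Ctsb, a cysteine protease, was at 177 in beta (173 to 182), 209 in alpha (197 to 222), 193 in delta (170 to 218) and 151 in PP cells (132 to 173), and Ctsl, another, at 183 (179 to 188), 218 (206 to 231), 230 (205 to 258) and 174 (153 to 197). For these genes the groups lay close, with beta cells overlapping PP cells for Ctsl and delta cells for Ctsb. The lesser proteases Ctsf and Tpp1 stood at 60.4 and 31.1 in beta, 28.6 and 23.0 in alpha, 61.1 and 28.7 in delta and 31.1 and 27.5 in PP cells. Ctsz, a carboxypeptidase (chromosome 2, 174427493 to 174439039, minus strand), was the exception, with 223 in alpha (211 to 236) and 211 in PP cells (188 to 236) against 112 in delta (94.4 to 131) and 53.5 in beta cells (51.1 to 55.9). After each cell was thinned to 3000 non-hormone UMIs, which left out 47 beta cells and 1 PP cell, Ctsz was seen in 45.6% of alpha, 45.9% of PP and 14.6% of beta cells, and unthinned in 83.4%, 87.2% and 42.0%. Beta cells were thus lowest in this protease of the endocrine groups, and free RNA could give at most 3.6% of its alpha level and 25.2% of its beta level.

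Among the sugar-cleaving enzymes, Hexa, which acts in ganglioside breakdown, led with 181 in beta cells (177 to 186), 124 in alpha (115 to 134), 122 in delta (103 to 142) and 125 in PP cells (107 to 145). Aga, which cuts the bond between sugar chains and asparagine (chromosome 8, 53511727 to 53523421, plus strand), was nearly level over the endocrine groups, at 79.6 in beta (76.7 to 82.6), 87.2 in alpha (79.5 to 95.3), 94.3 in delta (78.5 to 112) and 82.6 in PP cells (68.3 to 99.0). Its intervals overlapped in all 4, and endothelial-marked cells were lower at 19.8. Neu1, a sialidase, and Gaa, which degrades glycogen, lay at 70.9 and 83.5 in beta cells against 37.6 and 38.7 in alpha cells. The remaining glycosidases were low in beta cells, with Gusb at 40.2, Man2b1 at 16.0, Gla at 13.6, Glb1 at 10.5 and Naglu at 8.00. Tfeb, the transcription factor of lysosomal genes, gave 159 UMIs in all beta cells, a level of 4.40 (3.75 to 5.14), and 2.17 in alpha (1.12 to 3.79), 4.53 in delta (1.66 to 9.86) and 5.65 in PP cells (2.44 to 11.1), and all of these intervals overlapped.

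**Figure D1:**
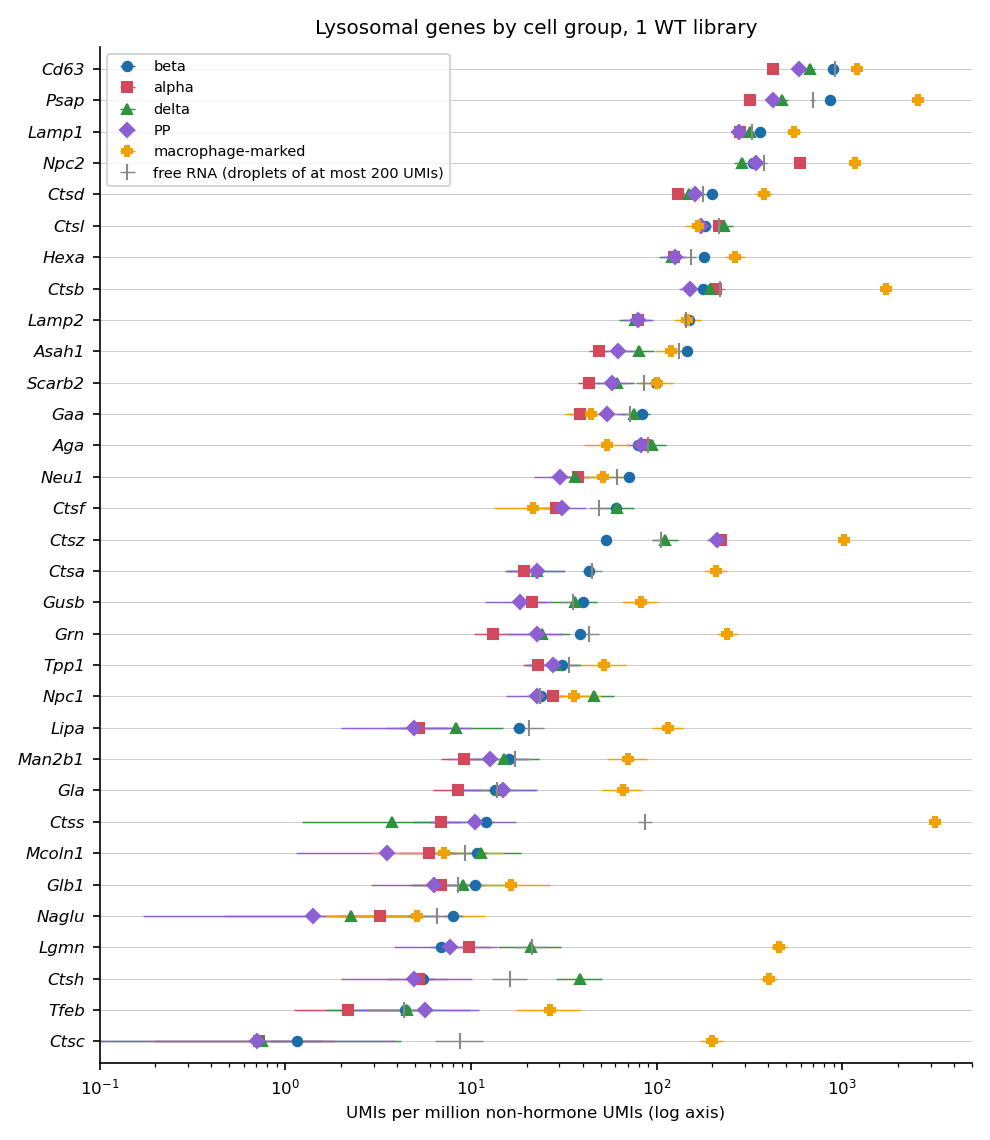
Level of each of the 32 genes in UMIs per 1000000 non-hormone UMIs (log axis) in beta, alpha, delta, PP and macrophage-marked cells and in free RNA, with bars for the 95% Poisson interval. Macrophage-marked cells lie far to the right for Ctss (3174), Lgmn (457), Ctsh (402) and Ctsc (199), where the endocrine groups are at most 38.5.

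Ctss and Ctsc were high in macrophage-marked cells and low in endocrine cells. Ctss, which trims the invariant chain of MHC class II, stood at 3174 in macrophage-marked cells and at 12.1 in beta (11.0 to 13.3), 6.87 in alpha (4.86 to 9.43), 3.77 in delta (1.22 to 8.81) and 10.6 in PP cells (5.93 to 17.5). Ctsc, which activates granule proteases of immune cells, stood at 199 there and at 1.16 in beta (0.838 to 1.57), 0.723 in alpha (0.197 to 1.85), 0.755 in delta (0.0191 to 4.20) and 0.706 in PP cells (0.0179 to 3.93). Free RNA, read from droplets of at most 200 UMIs, had Ctss at 86.9 and Ctsc at 8.74. If all Gcg in beta cells and all Ins2 in the other endocrine groups were free RNA, free RNA would give 91.7% of the Ctss level in beta, 95.3% in alpha, 253% in delta and 122% in PP cells, and 91.1% to 184% of the Ctsc level. Values over 100% mean that the bound overstates free RNA in those groups. The bound does not separate these levels from background, so they are not given as expression. Of the beta cells 17 held at least 10 UMIs of the macrophage score, and single beta and alpha cells held up to 29 and 12 Ctss UMIs, whose part in these levels was not tested. For Psap and Cd63 the same bound was 10.2% and 13.2% of the beta level.

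Set against beta cells, macrophage-marked cells had 24 of 29 tested members over 1.5-fold higher and 1 lower, where 31.6% of all 7217 tested genes were higher and 28.5% lower. A gene was tested at 20 ppm in either group, ratios are on the log2 scale and relative to the median tested gene, and 1.5-fold is 0.58. The median over tested members was 1.88. The median gene itself was at -0.85 in ppm, and as plain ratios 19 members were higher and 2, Ctsf and Gaa, lower. Lamp2 (147 against 150 ppm) and Ctsl (167 against 183), counted among the 24, were not higher in ppm. The highest ratios belonged to Ctss (8.88, 8.74 to 9.03), Ctsc (8.27, 7.78 to 8.78), Ctsh (7.03, 6.78 to 7.28) and the asparagine-specific protease Lgmn (6.89, 6.66 to 7.12). These genes, with Lipa, Tfeb, Gla and Man2b1, passed 20 ppm only in macrophage-marked cells. This fixed their direction, so the count of 24 is no more than a description. The ratios of Ctss and Ctsc also rest on beta levels of which free RNA could give up to 91.7% and 96.0%. Their intervals do not cover this. The lowest were Ctsf (-0.64, -1.33 to -0.02), Gaa (-0.07), Aga (0.30) and Neu1 (0.38). Endothelial-marked cells had 7 of 25 tested members higher and 7 lower than beta cells, against 34.4% and 34.2% of 7657 genes. Ctsc (4.72), Tfeb (2.61), Gla (1.68) and the progranulin gene Grn (1.48) were highest there, and Aga (-1.71), Npc1 (-1.64), Cd63 (-1.44) and Gaa (-1.12) lowest. Of the called members, Ctsc, Tfeb, Gla and Lipa passed 20 ppm only in endothelial-marked cells, and Aga and Npc1 only in beta cells. Their directions were thus fixed, and both counts are no more than descriptions.

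Against alpha cells, beta cells had more RNA of Asah1, Psap and Grn and less of Ctsz and Npc2. Grn stood at 38.8 in beta and 13.2 in alpha cells, with 24.1 in delta and 22.6 in PP cells, and Ctsa at 43.3 and 19.3, with 22.6 in both others. Of 21 tested members 8 were over 1.5-fold higher in beta cells, where 16.8% of all 6709 tested genes were, and 4 were lower, where 15.4% were. Grn and Ctsa passed 20 ppm only in beta cells, which fixed their direction, so the count of 8 is no more than a description. As plain ratios 12 were higher and 2 lower. The median member ratio was 0.57. Under 20 ppm in both groups, and so not tested, were Ctsc, Ctss, Gla, Glb1, Lipa, Man2b1, Naglu, Tfeb, Mcoln1, Ctsh and Lgmn. Asah1 (1.22, 1.05 to 1.41), Grn (1.21, 0.87 to 1.57), Psap (1.09, 1.02 to 1.16) and Scarb2 (0.85, 0.66 to 1.04) were highest, followed by Ctsa, Gaa, Ctsf and Cd63 between 0.73 and 0.82. Lowest were Ctsz (-2.41, -2.51 to -2.30), Npc2 (-1.18, -1.24 to -1.13), Ctsl (-0.60, -0.69 to -0.51) and Ctsb (-0.59, -0.68 to -0.49). The calls of Ctsl and Ctsb depend on the scaling, because the median gene itself was at 0.35 in parts of non-hormone UMIs, and the plain ratios of Ctsl and Ctsb were -0.25 and -0.24.

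Against delta cells, beta cells again had more Psap and Asah1 RNA, and Ctsh, Lgmn and Ctsz were higher in delta cells. Of 23 tested members 7 were higher in beta cells (17.5% of 7061 genes) and 4 lower (16.8%), with a median of 0.17. Ctsh and Lgmn were tested only because they passed 20 ppm in delta cells, which fixed their direction, so the count of 4 is no more than a description. Neu1 (0.94, 0.53 to 1.39), Lamp2 (0.94, 0.66 to 1.24), Ctsa (0.91, 0.39 to 1.48), a carboxypeptidase that holds NEU1 in its active form, and Psap (0.85, 0.73 to 0.96) were highest. Ctsh, an aminopeptidase (chromosome 9, 90054152 to 90076089, plus strand), was lowest at -2.82 (-3.27 to -2.35), with 38.5 ppm in delta cells (28.7 to 50.6), 5.54 in beta (4.80 to 6.36), 5.24 in alpha and 4.94 in PP cells. Lgmn followed at -1.64 (-2.20 to -1.02), with 21.1 ppm in delta (14.0 to 30.5), 6.92 in beta (6.09 to 7.84), 9.76 in alpha (7.34 to 12.7) and 7.77 in PP cells (3.88 to 13.9), then Ctsz (-1.09, -1.33 to -0.84) and Npc1 (-0.97, -1.35 to -0.57).

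Ctsh and Lgmn are also high in macrophage-marked cells, so macrophage marker levels are given beside the delta values, and the part of macrophage RNA in them was not tested. Ctsh was seen in 37 of 149 delta cells with at most 3 UMIs in any of them, and 3 of the 37 had a UMI of the macrophage score. Of the delta cells 0 reached 10 UMIs of that score, whose summed level was 120 ppm in delta cells, 124 in beta, 135 in alpha and 120 in PP cells against 10843 in macrophage-marked cells. Ctss, at 3174 the leading member in macrophage-marked cells, was at 3.77 in delta cells. After thinning, 10.7% of delta cells had a Ctsh UMI against 1.51% of beta cells, and unthinned 24.8% against 5.09%, at median depths of 7232 and 10350 non-hormone UMIs. Free RNA could give at most 4.6% of the Ctsh level and 11.1% of the Lgmn level in delta cells.

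Against PP cells, beta cells had 9 of 21 tested members higher (15.9% of 6847 genes) and 1 lower (14.5%), with a median of 0.49. Gusb, at 40.2 ppm in beta and 18.4 in PP cells, passed the level set for testing only in beta cells. This fixed its direction, so the count of 9 is no more than a description. Asah1 (1.12, 0.81 to 1.44), Neu1 (1.11, 0.68 to 1.58), Gusb (1.02, 0.46 to 1.64) and Psap (0.92, 0.80 to 1.03) were highest. Ctsz was the member past the limit in the other direction, at -2.09 (-2.27 to -1.91). Next to it Aga (-0.16), Npc2 (-0.16) and Ctsl (-0.04) lay within 1.5-fold. The same beta cells enter all 3 comparisons, so these are not independent. Side by side, Psap was at 1.09, 0.85 and 0.92 over alpha, delta and PP cells, Scarb2 at 0.85, 0.67 and 0.66, Ctsa at 0.82, 0.91 and 0.83, and Lamp1 at 0.02, 0.17 and 0.27.

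**Figure D2:**
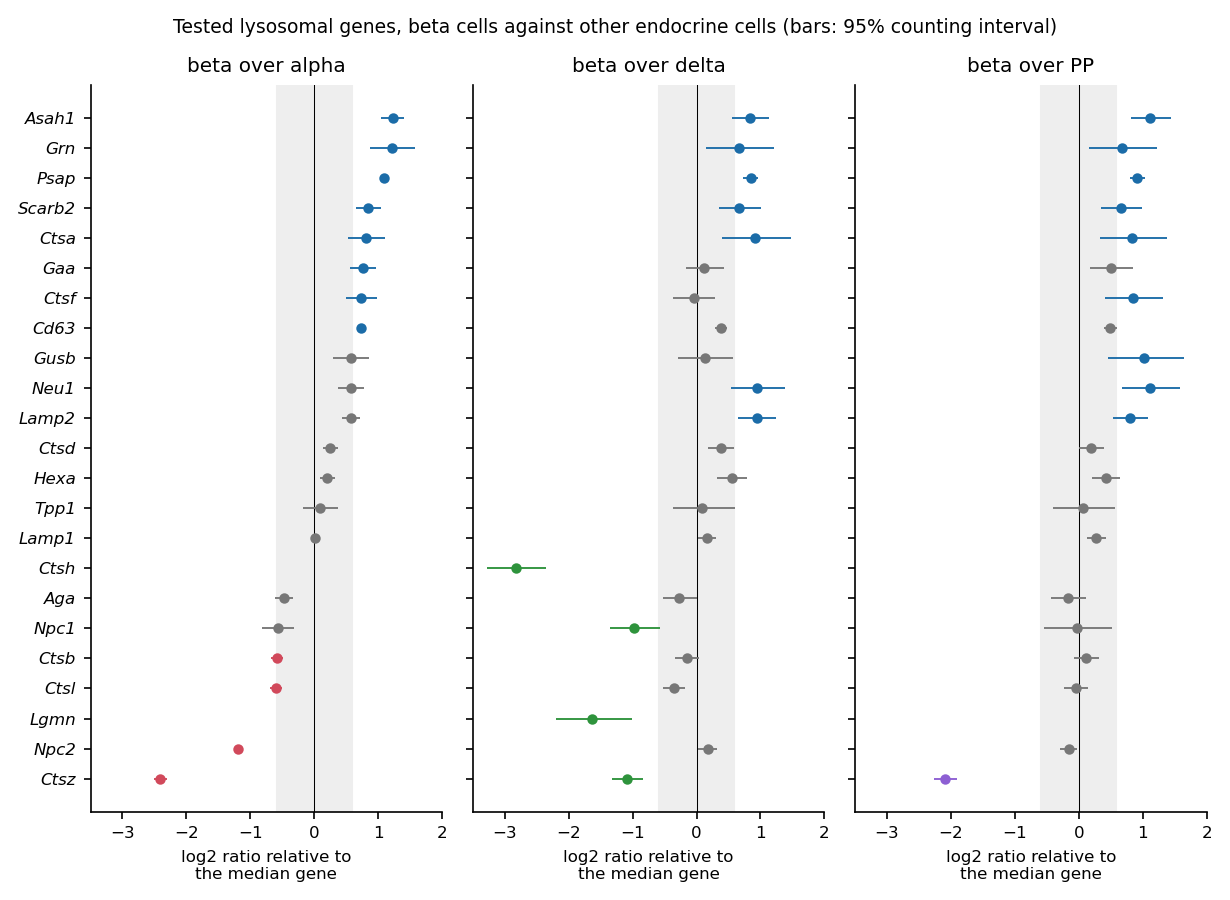
Log2 ratio of beta over alpha, delta and PP cells, relative to the median tested gene, for the members tested in each panel, with bars for the 95% counting interval and a grey band for ratios within 1.5-fold. Coloured points lie past the band, and Ctsz lies past it to the left in each panel, at -2.41, -1.09 and -2.09.

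Of 66 other lysosomal genes, 46 were tested in each of these contrasts. In beta over alpha cells 14 were higher and 4 lower (median 0.27), where 16.8% and 15.4% of all tested genes were. Over delta cells the counts were 11 and 2 (median 0.20), against 17.5% and 16.8% of all genes. Over PP cells they were 12 and 2 (median 0.30), against 15.9% and 14.5%. Flcn, a folliculin that acts with the nutrient-sensing Rag GTPases, was at 1.44, 1.02 and 1.07. Cln3, a membrane protein of the lysosome, was the other of the highest pair over alpha cells, at 1.42, and Ids, iduronate sulfatase, over delta and PP cells, at 1.17 and 0.93. Against alpha cells, Flcn, Cln3, Ostm1 and Acp2 passed the level set for testing only in beta cells. Their alpha levels were 14.8, 9.40, 10.8 and 10.8 ppm. The same held for Ostm1 against delta cells (17.4 ppm) and for Cln3 and Ostm1 against PP cells (17.6 and 19.1). This fixed their directions, so the counts of higher genes are no more than descriptions. Among the lowest were Gm2a (-1.08) and Ppt1 (-0.82) over alpha, Lamtor3 (-0.71) over delta and Tfe3 (-0.73) over PP cells. Gm2a serves the same ganglioside breakdown as Hexa, which lay within 1.5-fold in all 3 contrasts at 0.20, 0.55 and 0.42. Members with and without CACGTG in their promoter had medians of 0.49 and 0.57 over alpha cells (6 and 11 tested genes). The medians were 0.12 and 0.55 over delta cells (7 and 11) and 0.39 and 0.66 over PP cells (6 and 11). Members without a promoter entry are in neither set.

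Within beta cells several members were higher where insulin took a larger share of the RNA. Aga and Cd63 were picked for this relation, so their values are a description. Beta cells were ordered by insulin share and divided into 5 groups of 652 or 653 cells, with shares of 30.1% to 42.7% in the lowest and 57.5% to 76.3% in the highest. Aga stood at 50.6, 60.7, 76.9, 86.5 and 129 ppm from the lowest to the highest group, and Cd63 at 631, 785, 860, 907 and 1302. Both were higher at each step, with the largest step at the end. Ctsl was at 139, 159, 168, 189 and 267, Ctsz at 44.0, 50.7, 49.3, 58.3 and 66.9, and Neu1 at 62.0, 64.9, 67.4, 74.4 and 87.5. Psap, close to Cd63 in level, was at 883, 841, 841, 868 and 880 and showed no such order. Npc1 went the other way, at 30.6, 22.6, 24.2, 23.0 and 17.8.

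**Figure D3:**
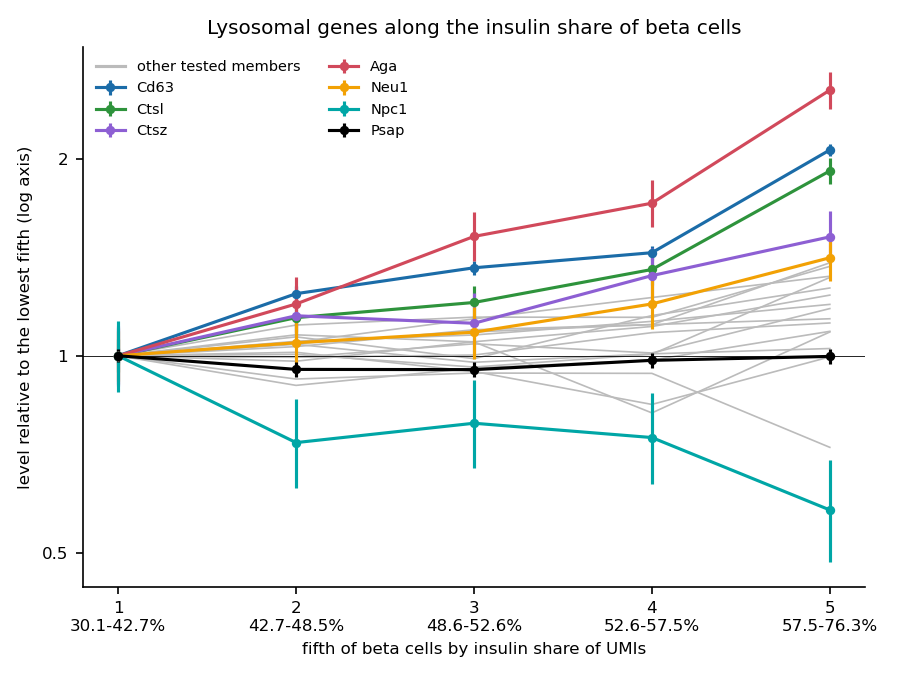
Level of each tested member in 5 groups of beta cells ordered by insulin share of UMIs, relative to the lowest group (log axis), with bars for the 95% Poisson interval of the named genes. Aga goes from 50.6 to 129 and Cd63 from 631 to 1302 ppm, while Psap starts at 883 and ends at 880.

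Set as the highest against the lowest insulin group, 5 of 22 tested members were over 1.5-fold higher, where 10.2% of all 6730 tested genes were, and 1 was lower, where 3.83% were. Aga and Cd63 are among the 5 through the choice of members, and without them 3 of 20 were higher. Aga (1.46, 1.29 to 1.63), Cd63 (1.16, 1.11 to 1.20), Ctsl (1.05, 0.94 to 1.16) and Ctsz (0.71, 0.51 to 0.92) were highest, and Neu1 was at 0.61. Lowest were Npc1 (-0.67, -0.99 to -0.36), Lipa (-0.35), Tpp1 (0.11), a tripeptidyl peptidase, and Psap (0.11). Of the highest and lowest groups, Npc1 (17.8 ppm in the highest) and Lipa (14.5) passed 20 ppm only in the lowest. This fixed their direction, so the count of 1 lower is no more than a description. The median member was at 0.40, and 0.36 without Aga and Cd63. Besides these, 6 of the 20 were higher at each of the steps: Lamp1, Lamp2, Ctsa, Ctsl, Hexa and Neu1. The share among all tested genes was 10.1%. Over the 3261 single cells, Spearman's rho with insulin share was 0.35 for Cd63, 0.22 for Ctsl, 0.21 for Aga, 0.15 for Npc2 and 0.01 for Psap, against a median of -0.03 over 6395 genes. These are descriptions over cells that share 1 library, and depth enters them. Members with and without CACGTG in their promoter had medians of 0.46 and 0.41, for 6 and 12 tested genes. Members without a promoter entry, Aga among them, are in neither set.

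**Figure D4:**
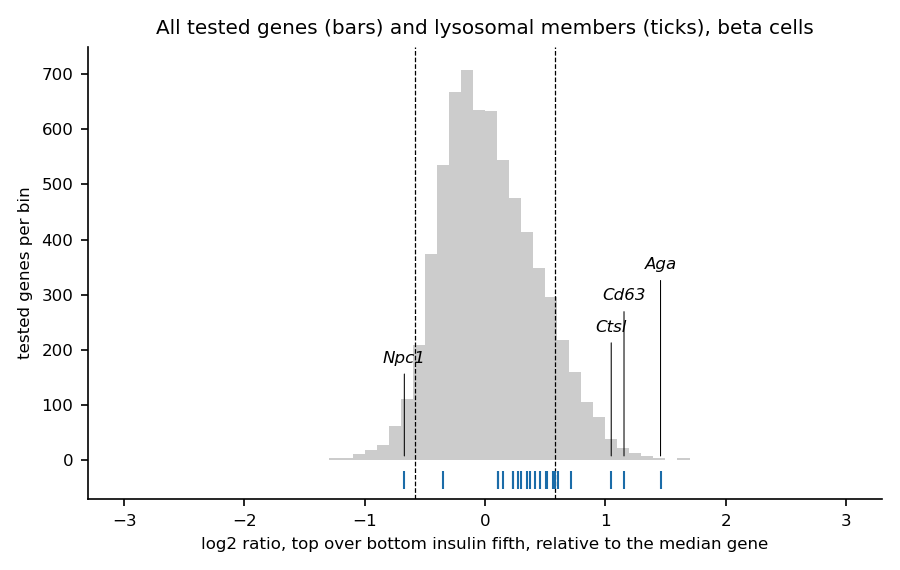
Log2 ratio of the highest over the lowest insulin group of beta cells, relative to the median gene, for all 6730 tested genes (grey bars, genes per bin) and for the 22 tested members (ticks), with dashed lines at 1.5-fold. Aga (1.46), Cd63 (1.16) and Ctsl (1.05) lie in the right tail and Npc1 (-0.67) past the left line.

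Other properties moved along this order. Median total UMIs went from 21530 to 31086, non-hormone UMIs from 12479 to 10442, and the mitochondrial part of non-hormone UMIs from 7.95% to 6.82%. With the insulin groups formed within 5 strata of non-hormone UMIs, Aga, Cd63 and Ctsl were at 1.68, 1.20 and 1.06. Within strata of the mitochondrial part they were at 1.34, 1.08 and 0.87, and within strata of immediate early genes at 1.42, 1.06 and 0.97. The macrophage score was at 128 ppm in the lowest and 135 in the highest group and the endothelial markers at 68.0 and 54.5, and their part in the relation was not tested. Among 10 immediate early genes 4 were higher and 2 lower in the highest group, where 10.2% and 3.83% of all tested genes were. Of 10 genes of folding in the endoplasmic reticulum none passed 1.5-fold in either direction. Sst was at 1699 ppm in the lowest group and 589 in the highest, and in beta cells with Gcg, Sst and Ppy each under 1% of UMIs Aga was at 1.44, Cd63 at 1.17 and Ctsl at 1.10. The lowest group borders on cells outside the beta rule: 116 cells with an insulin share of 25% to 30% had Aga at 34.1 and Cd63 at 489, and 192 cells at 30% to 35% had 40.4 and 531.

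Of the 66 other lysosomal genes 48 were tested along the insulin share, with 9 higher, 1 lower and a median of 0.13. Of all tested genes 10.2% were higher and 3.83% lower. Lamtor4 (0.85, 0.72 to 0.99) and Lamtor5 (0.78, 0.62 to 0.93), subunits of the Ragulator complex that anchors nutrient sensing to the lysosome, were highest. Tfe3, a relative of TFEB, was at -0.61 (-0.80 to -0.42), with 80.0 ppm in the lowest and 48.5 in the highest group, and Clcn7, a chloride transporter, at -0.50 (-0.89 to -0.13). Tfe3 was the 1 gene lower past 1.5-fold.

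Aga was likewise higher with the cells' own hormone share in the other endocrine groups, a comparison added after the beta values were seen. In 3 groups of alpha cells ordered by Gcg share it stood at 56.2, 86.5 and 125 ppm, in delta cells ordered by Sst share at 63.7, 85.6 and 146, and in PP cells ordered by Ppy share at 50.9, 98.8 and 114. The ratio of highest to lowest group was 1.29 in alpha (0.96 to 1.62), 1.16 in delta (0.53 to 1.81) and 1.14 in PP cells (0.42 to 1.88). Cd63 was within 1.5-fold in each, at 0.56 (0.42 to 0.71), 0.53 (0.29 to 0.76) and 0.42 (0.18 to 0.66). Insulin share in these cells hardly moved, with medians between 2.39% and 3.42% in all 9 groups. Depth did: median non-hormone UMIs went from 13016 to 10313 in alpha, from 8290 to 7253 in delta and from 14737 to 8541 in PP cells.

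Over the whole list, 6 of 20 tested members were higher in the alpha cells of highest Gcg share (7.08% of 5976 genes) and 0 lower (8.28%): Aga, Neu1, Hexa, Ctsl, Npc2 and Ctsz. Npc2 went from 476 to 725 ppm there, a ratio of 0.74 (0.62 to 0.86), and Ctsl from 172 to 274, a ratio of 0.80 (0.60 to 1.00). In delta cells 5 of 26 were higher (13.9% of 7133) and 0 lower (15.6%), and in PP cells 2 of 21 were higher (17.4% of 6721), Aga and Ctsl, and 7 lower (19.7%). The others were Glb1, Man2b1, Lgmn and Gusb in delta cells, and the lower ones Tpp1, Npc1, Scarb2, Gla, Grn, Asah1 and Ctsa in PP cells. Apart from Aga, these delta genes rest on 20 UMIs or fewer in the highest group, and the lower PP genes on 17 or fewer. Of the highest and lowest groups, Glb1 and Man2b1 (9.06 and 15.1 ppm over all delta cells) passed 20 ppm only in the highest. Gla (14.8 ppm over all PP cells) passed it only in the lowest. This fixed their directions, so the delta and PP counts are no more than descriptions.

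**Figure D5:**
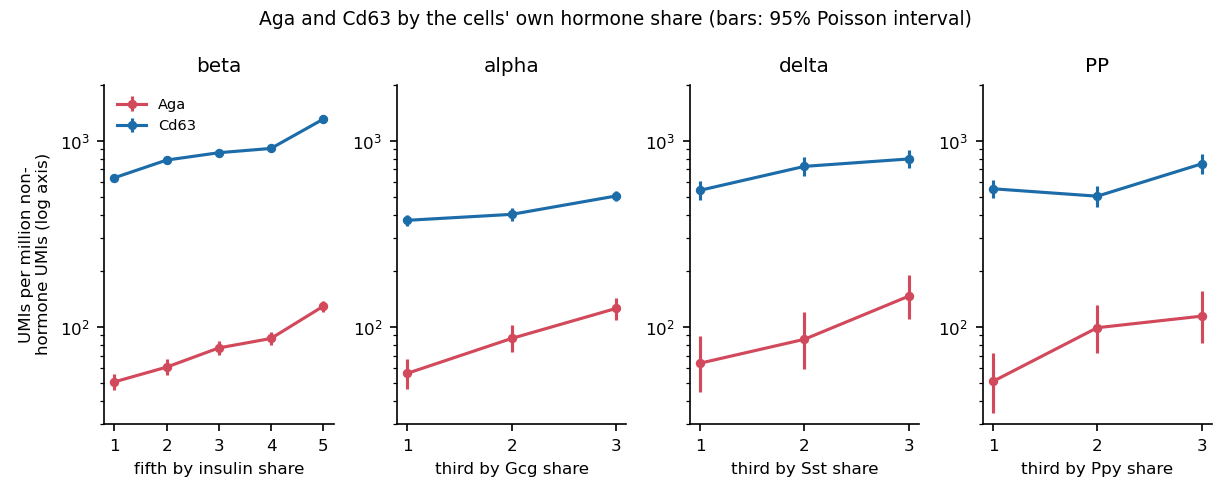
Levels of Aga and Cd63 in UMIs per 1000000 non-hormone UMIs (log axis) in beta cells by insulin share (5 groups) and in alpha, delta and PP cells by Gcg, Sst and Ppy share (3 groups each), with bars for the 95% Poisson interval. Aga is higher at each step in every panel and ends at 129, 125, 146 and 114.

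The members also differed in how evenly beta cells carried them. Variation beyond counting, given as a coefficient of variation over beta cells, had a median of 35.6% over 21 members and 36.9% over 6395 genes. It was widest for Aga (70.6%), Npc1 (64.5%), Neu1 (57.4%), Grn (54.8%), Cd63 (53.0%) and Ctsl (52.1%). Genes of like level had medians of 33.5% for Aga and 24.6% for Cd63. Within the insulin groups Aga was at 56.1% and Cd63 at 44.7%, and both had been picked for their change with it. The most even were Lamp1 (20.1%), Psap (22.3%) and Npc2 (22.4%), below or near genes of like level at 27.6%, 25.5% and 27.9%.

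The part of the miR-203 TG matrix at hand held 782 UMIs in 59 barcodes, of which the largest had 110, so it held no cell. Of its 486 non-hormone UMIs 1 belonged to a member, Cd63, a share of 0.206% (exact binomial interval 0.00521% to 1.14%). In WT droplets of at most 200 UMIs the members took 0.421%, which lies inside that interval. A difference of the lysosomal list between transgenic and WT islets was not detectable at this depth.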

How the data were processed

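The deposited values are raw UMI counts per gene and barcode, per the file headers, in an unfiltered WT matrix of 737280 barcodes with 118523180 UMIs and a TG matrix of which 547 of 23580133 entries were at hand. Its barcodes shared with WT could not be counted among cells, because it held none. FastQC, Trimmomatic and the build mm10 were used, per the submitters' processing notes; which counting tool and strand setting were used is not given in the sources here. Reads of members that overlap a gene on the other strand (such as Lamp1 with Grtp1, Ctsb with Fdft1 or Ctsz with Nelfcd), or have a pseudogene (Cd63), may therefore be shared.

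Cells entered the first hormone rule they met (beta, alpha, delta, PP). No doublet caller was run; 3 beta, 48 alpha and 12 delta cells met a second rule and were left out as an alternative. UMIs were summed per group, divided by non-hormone UMIs (without Ins1, Ins2, Iapp, Gcg, Sst, Ppy and Pyy) and given with exact Poisson intervals. Ratios carry exact conditional binomial intervals. Members and gene lists were chosen with earlier results of these data known. Named genes are members of at least 100 ppm (UMIs per 1000000 non-hormone UMIs) in an endocrine group, 7 others set by name, the 4 highest and 4 lowest members of a contrast and the 2 highest and 2 lowest of the other lysosomal genes; further members are given in ranges, and 1 gene of this rule is not reported here. Coordinates are from GENCODE for mm10. Python 3.11.15, numpy 2.4.6, scipy 1.17.1, pandas 2.3.3 and matplotlib 3.10.9 were used, and the ratio code was tested on simulated data.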

Additional observations from a re-analysis of the deposited data

How the results depend on the processing

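The counts and ratios of beta against alpha, delta and PP cells were recomputed under 11 alternatives (scalings, low-value limits, cell limits, groupings and weightings) and those along the insulin share under 13. Of 92 recomputed counts 81 stayed within 1.5 times the original and 11 did not, and no called ratio of these comparisons changed sign. The members lower in beta than alpha cells went from 4 to 2 as plain ratios, with the trimmed mean of M values and at a limit of 50 ppm. Those lower than in delta cells went from 4 to 1 at that limit. Without a low-value limit the members higher in beta cells were 14 over alpha, 12 over delta and 14 over PP cells. Along the insulin share the 5 higher members became 8 with equal weight per cell and 3 with 3 groups in place of 5, and the 1 lower member became 0 with 3 groups and at the limit of 50. Aga stayed between 1.15 and 1.68 there, Cd63 between 0.82 and 1.20 and Ctsl between 0.76 and 1.12. Ctsz over alpha cells ranged from -2.50 to -2.06 and Ctsh over delta cells from -3.05 to -2.74. The macrophage-marked and endothelial-marked comparisons and those by Gcg, Sst and Ppy share were recomputed as plain ratios alone: over beta cells, Lamp2 (-0.032) and Ctsl (-0.13) changed sign in macrophage-marked cells and the members lower there went from 1 to 2, and those lower with Gcg share went from 0 to 1, Tpp1. These, the alternatives with macrophage or endothelial markers and the immediate early strata were chosen after seeing the data. No paired analysis was possible because each group has 1 library. Depth limits the low members most: in beta cells Tfeb rests on 159 UMIs and Ctsc on 42.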
